A study of Mus musculus with 7 samples.

Results

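The genes described here are the epithelial membrane proteins *Emp1*, *Emp2* and *Emp3* and their relative *Pmp22*, which encodes peripheral myelin protein. All 4 are among the 47729 gene identifiers of the table, and all 4 passed the filter on low counts with 19188 genes tested. The set was chosen because the abundant *Emp1* was higher in every knockout library, so its difference between the groups is a description. Averaged over all 7 libraries *Emp1* had the highest level of the 4 by count, but *Pmp22* had more counts in every wild-type library. Calls for the 4 genes from the fit over all genes are listed beside the share of all genes called, and nothing is read from them.

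RNA was sequenced from aorta of mice labelled as *Mmp19* knockouts (KO, Mmp19-/-, 3 libraries) and of wild-type mice (WT, 4 libraries). No treatment is named for either group, and strain, age and sex are not among the labels used here. Whether the libraries stem from different mice is not labelled, and p-values then measure only the spread between libraries, which may be technical. The title of the study concerns the metalloproteinase MMP19 in vascular smooth muscle in thoracic aortic aneurysm and dissection.

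The family encodes small membrane proteins that cross the membrane repeatedly and share their fold with the claudins of tight junctions. PMP22 is a component of compact myelin in Schwann cells, where too many gene copies cause a common inherited neuropathy, and it was also cloned as a transcript of growth-arrested fibroblasts. The EMP proteins occur in many epithelia and other tissues, act at the plasma membrane, and bind the ATP receptor P2X7.

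The libraries held 68151472 to 76926790 estimated counts. No library was a copy of another. *Mmp19* itself (chromosome 10, 128790910 to 128800824, GRCm38) was at 25.5, 12 and 15.9 CPM (counts scaled to a common library total, with TMM factors between libraries) in KO replicates 1, 2 and 3, against 24.8, 24.8, 20.7 and 34.7 CPM in WT. KO replicate 1 lay inside the WT range, so gene counts do not separate the labels, and reads of *Mmp19* may be shared with *Tmem198b* on the opposite strand, since the strand setting is not given in the sources used here. KO replicate 1 stood furthest from WT on the first principal component (score of 131, against 8.92 and 35.6 in the other KO libraries and -78.9 to -28.9 in WT). Smooth muscle markers were abundant in all libraries, with 12 of 12 tested, though their summed level was 3985, 14985 and 7952 CPM in KO replicates 1, 2 and 3 and 19886 to 22080 CPM in WT. Log2 fold changes and levels per length of the members are therefore also given without KO replicate 1.

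*Emp1*, an epithelial membrane protein that is induced in differentiating squamous epithelium, was the member that separated the groups. It read 479, 288 and 386 CPM in KO replicates 1, 2 and 3, against 143, 114, 118 and 164 CPM in WT replicates 1, 2, 3 and 4. The groups did not overlap, and the lowest KO library was 1.75 times the highest WT library. *Emp1* had a mean of 385 ± 95.6 CPM over 3 KO libraries, against 135 ± 23.7 CPM over 4 WT libraries (± SD), a ratio of means of 2.85. The fitted log2 fold change of KO over WT was 1.51 (SE 0.21), and it was 1.32 without KO replicate 1. By mean CPM over the 7 libraries *Emp1* ranked 536 of 19188 genes, and by log2 fold change it was 982 from the top.

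*Emp1* lies on the plus strand of chromosome 6 (135362545 to 135383173, GRCm38), with 6 transcripts in GENCODE M21 and no overlapping gene. Counts per gene do not show which start site was used. The first RefSeq start of *Emp1* lies after the first base of the gene in GENCODE, so its window below falls within the annotated gene. The upstream windows of *Emp1* and *Emp2* are shown because *Emp1* separated the groups, with *Emp2*, its closest relative by coding sequence, beside it. They hold the 250 bases before the first RefSeq start, from RefSeq on GRCm38.p6, at chr6:135362681-135362930 on the plus strand and chr16:10313969-10314218 on the minus strand, with capitals for TGANTCA, the letters of the AP-1 motif, and for TATAAA.
Emp1: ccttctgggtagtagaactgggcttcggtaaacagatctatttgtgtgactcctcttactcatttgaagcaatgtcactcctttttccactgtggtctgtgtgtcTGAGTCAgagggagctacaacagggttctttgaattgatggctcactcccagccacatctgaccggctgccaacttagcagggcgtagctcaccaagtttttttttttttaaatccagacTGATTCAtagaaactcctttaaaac
Emp2: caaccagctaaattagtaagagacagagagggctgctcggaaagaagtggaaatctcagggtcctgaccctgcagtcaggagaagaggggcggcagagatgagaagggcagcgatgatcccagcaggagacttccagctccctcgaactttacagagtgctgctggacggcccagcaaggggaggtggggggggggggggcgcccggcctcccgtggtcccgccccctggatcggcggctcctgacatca

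The *Emp1* window held TGANTCA at 2 places, which begin 145 and 25 bases before the start. The pattern reads the same on both strands and occurred in 6.75% of 32851 windows of the 250 bases before a start, and 2 or more matches in 0.338%. Its form TGAGTCA, searched with its complement, was held by the match at 145 and occurred in 4.46% of windows. The other 8 windows of the family, at the second start of *Emp1*, the start of *Emp2*, both starts of *Emp3* and the 4 starts of *Pmp22*, held no match to the AP-1 letters. The TATA box letters TATAAA were found in the outer *Emp3* window alone, 40 bases before the start (12.4% of windows), and GGAATG, a TEAD motif, in the first *Pmp22* window alone (12.6%), both searched on either strand. The cyclic AMP response element TGACGTCA (1.55% of windows) and the CArG box of serum response factor (1.47%) were in none of the 9. The motifs were chosen after the windows had been read, and a match does not show a site in use.

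*Emp2*, which controls integrin and caveolin levels at the cell surface in epithelia, read 71.0, 118 and 77.7 CPM in KO replicates 1, 2 and 3, against 130, 87.7, 124 and 123 CPM in WT. KO replicates 1 and 3 lay below all WT libraries and KO replicate 2 among them, so the groups overlapped. *Emp2* (chromosome 16, 10281749 to 10313968) had a mean of 89.0 ± 25.6 CPM over 3 KO libraries, against 116 ± 19.3 CPM over 4 WT libraries (± SD), with a log2 fold change of -0.39 (SE 0.22). That value was -0.25 without KO replicate 1 and -0.60 without KO replicate 2.

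*Emp3*, the member best known from blood cells and glioma, read 64.1, 60.2 and 45.9 CPM in KO replicates 1, 2 and 3, against 52.2, 47.3, 47.5 and 54.3 CPM in WT. KO replicates 1 and 2 lay above all WT libraries and KO replicate 3 below them. *Emp3* (chromosome 7, 45918023 to 45921404) had a mean of 56.8 ± 9.59 CPM over 3 KO libraries, against 50.3 ± 3.47 CPM over 4 WT libraries (± SD). Its log2 fold change of 0.17 (SE 0.14) was 0.07 without KO replicate 1, 0.32 without KO replicate 3 and -0.01 with limma-voom.

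*Pmp22* read 116, 191 and 206 CPM in KO replicates 1, 2 and 3, against 205, 171, 257 and 197 CPM in WT. KO replicate 1 was the lowest of all 7 libraries, while KO replicates 2 and 3 lay inside the WT range. *Pmp22* (chromosome 11, 63128982 to 63159547) had a mean of 171 ± 48.6 CPM over 3 KO libraries, against 207 ± 35.9 CPM over 4 WT libraries (± SD), with a log2 fold change of -0.28 (SE 0.23). Leaving out KO replicate 1 gave -0.07, so the size of this difference rests on that library, and limma-voom gave -0.06.

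**Figure D1:**
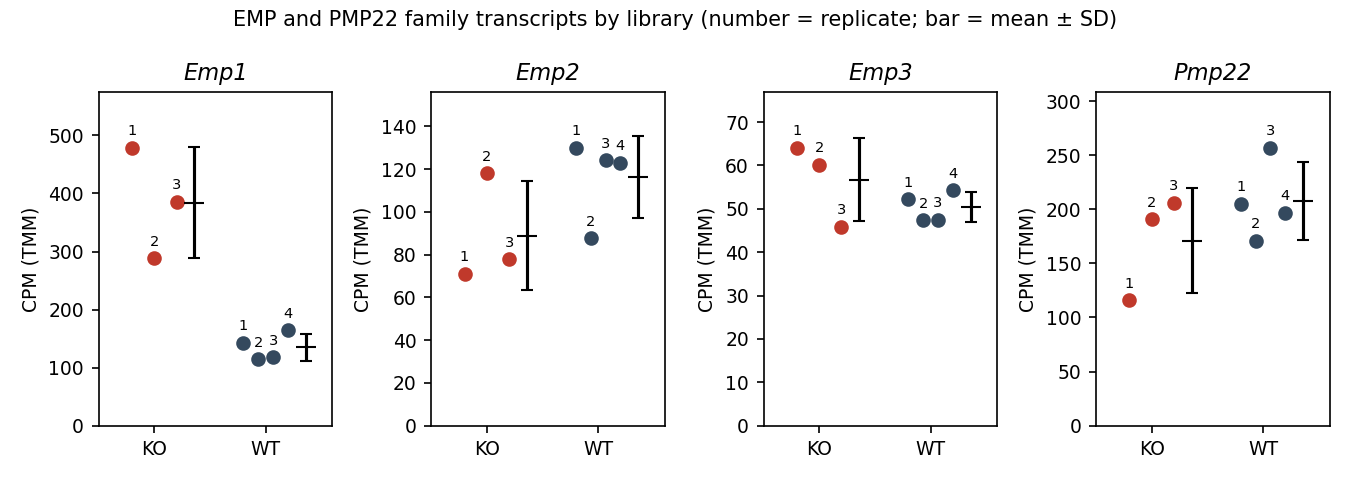
CPM of each member in each library, KO left of WT, with the replicate number beside each point and the mean ± SD as a bar (n = 3 KO, n = 4 WT). *Emp1* in KO sits between 288 and 479 CPM, above all WT libraries (114 to 164 CPM), while the groups overlap for the other 3 members.

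Against all genes tested, edgeR's quasi-likelihood test with Benjamini-Hochberg adjustment called 0 of the 4 members, where it called 0.0156% of genes (3 of 19188, all higher in KO). At an unadjusted p under 0.05 it listed 1 member, *Emp1*, against 17.2% of genes in either direction and 9.92% higher. DESeq2 called *Emp1* as well, against 9.68% of the 16587 genes it gave an adjusted p (6.15% higher and 3.53% lower), and limma-voom called 0 members, against 0.0365%. *Emp1* was 1 of 4 members higher in KO without overlap, against 8.17% of genes, and 0 members were lower without overlap, against 8.56%, or 16.7% in either direction. Since *Emp1* was chosen on this contrast, nothing is read from these counts.

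Ratios between members need no scaling between libraries, and those with *Emp1* are given as a description. The count of *Emp1* was 6.75, 2.43 and 4.97 times that of *Emp2* in KO replicates 1, 2 and 3, against 0.949 to 1.33 times in WT. Relative to *Pmp22* it was 4.14, 1.51 and 1.87 in KO and 0.458 to 0.836 in WT, and relative to *Emp3* it was 7.47, 4.79 and 8.40 in KO and 2.40 to 3.03 in WT. For all 3 ratios the lowest KO library exceeded the highest WT library. Since *Emp1* was chosen for being higher in every KO library, these gaps go with that choice and nothing is read from them. The ratio of *Pmp22* to *Emp2*, which leaves *Emp1* out, was 1.63, 1.62 and 2.66 in KO and 1.57 to 2.07 in WT, where the groups overlapped. The ratio of *Emp3* to *Emp2* was 0.903, 0.509 and 0.591 in KO and 0.383 to 0.540 in WT, and KO replicate 2 lay inside that range. These are ratios of counts and are not corrected for length.

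Levels of different genes were compared per kilobase, first over the union of a gene's exons. *Pmp22* had the highest level in WT at 88.1 ± 15.2 CPM per kb, followed by *Emp3* at 47.0 ± 3.24, *Emp1* at 22.7 ± 4.00 and *Emp2* at 13.5 ± 2.24 CPM per kb (SD, n = 4). The ranges of neighbours in that order did not overlap in WT. In KO the levels were 72.7 ± 20.6 CPM per kb for *Pmp22*, 64.8 ± 16.1 for *Emp1*, 53.0 ± 8.95 for *Emp3* and 10.3 ± 2.96 for *Emp2* (SD, n = 3). Without KO replicate 1 the KO means were 82.6 CPM per kb for *Pmp22*, 55.5 for *Emp1*, 48.4 for *Emp3* and 11.1 for *Emp2*. Over the KO libraries *Pmp22*, *Emp1* and *Emp3* overlapped and only *Emp2* stood apart. Within KO replicate 1 *Emp1* was the highest at 80.8 CPM per kb, while in KO replicates 2 and 3 *Pmp22* was, at 81.3 and 87.7 CPM per kb.

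The share of the family's summed level per kb that was *Emp1* was 40.8%, 24.3% and 31.8% in KO replicates 1, 2 and 3, against 13.8%, 13.1%, 10.6% and 15.7% in WT. The *Pmp22* share was 24.8%, 40.7% and 42.9% in KO and 47.4% to 58.1% in WT, and the *Emp2* share was 4.15% to 6.86% in KO and 6.95% to 8.61% in WT. None of these 3 shares overlapped between the groups, which goes with the choice of *Emp1* for being higher in every KO library. Shares within a sum move together, so a lower share of *Pmp22* or *Emp2* does not show a lower level. The *Emp3* share was 21% to 30.2% in KO and 23.6% to 30.3% in WT, with overlap. Over the longest protein-coding transcript, which shortens *Emp1* from 5935 to 2911 bases and *Emp2* from 8644 to 3440, the *Emp1* share was 31.4% to 49.8% in KO and 14.5% to 21% in WT, and the *Emp2* share 6.24% to 10.9% in KO and 11.7% to 14.2% in WT. By that length *Emp1* had the highest mean in KO, at 132 ± 32.9 CPM per kb against 93.9 ± 26.7 for *Pmp22*, with ranges that overlapped, and the order in WT stayed as given. The summed CPM of the 4 genes was 730, 658 and 716 in KO and 420 to 545 in WT.

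**Figure D2:**
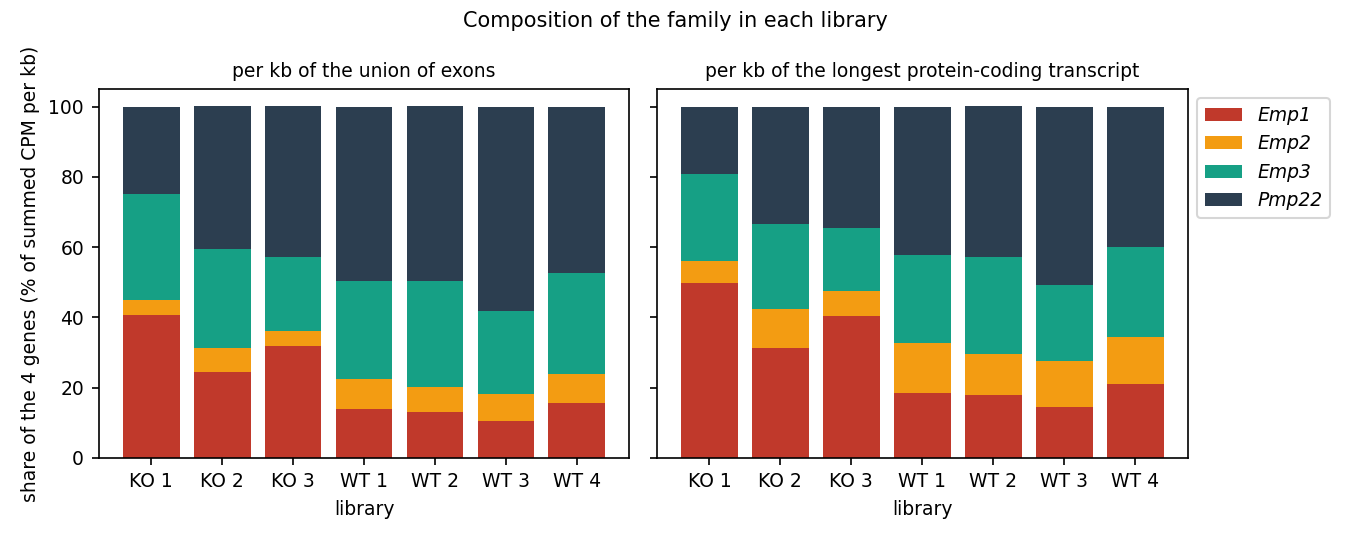
Share of each member in the family's summed CPM per kb in each library (% of the sum of 4 genes), by union of exons on the left and by longest protein-coding transcript on the right. The *Emp1* share by union of exons is 24.3% to 40.8% in the KO libraries and 10.6% to 15.7% in WT.

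The members could be told apart by sequence. Their coding sequences of 483 to 519 bases were 62.1% to 70.8% identical over aligned bases, with *Emp1* and *Emp2* the closest pair. The longest run of bases shared by any pair was 22, between *Emp2* and *Pmp22*. No gene in GENCODE M21 overlapped any of the 4.

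Spread within groups also differed among members. The coefficient of variation in KO was 24.9% for *Emp1*, 28.8% for *Emp2*, 28.4% for *Pmp22* and 16.9% for *Emp3*, and in WT it was 17.6%, 16.6%, 17.3% and 6.89% for the same genes. The median over the 9973 tested genes with a mean of 10 CPM or more was 17.3% in KO and 11.4% in WT. *Emp3* was thus the steadiest member in both groups, and all 4 varied more between KO than between WT libraries.

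The order of the KO libraries was not the same for each member. *Emp1* was highest in KO replicate 1 and lowest in KO replicate 2, *Emp2* was highest in KO replicate 2 and lowest in KO replicate 1, and *Pmp22* was highest in KO replicate 3. The root mean square difference between the centred log2 CPM of 2 members over the 7 libraries was smallest for *Emp2* and *Pmp22* (0.261) and largest for *Emp1* and *Emp2* (1.04). Among 9959 other genes, *Osmr*, the receptor for oncostatin M, came nearest to *Emp1*, with a difference of 0.163. It read 147, 84.5 and 142 CPM in KO libraries, against 39.5 to 58.9 CPM in WT libraries. Next were *Itga11*, a collagen-binding integrin chain (0.175), *Vcam1*, a leukocyte adhesion molecule (0.207), *Cxcl16*, a chemokine (0.212), and *Hs6st2*, an enzyme that sulfates heparan sulfate (0.216). *Itga11* had a mean of 31.5 ± 5.75 CPM over 3 KO libraries, against 10.5 ± 1.40 CPM over 4 WT libraries (± SD). *Hs6st2* averaged 19.6 ± 7.23 and 6.34 ± 1.19 CPM in KO and WT. These genes were picked for their likeness, so their own differences between the groups follow from the choice.

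The genes nearest to *Emp2* were *Kalrn*, a guanine nucleotide exchange factor (0.0676), *Ccdc149* (0.0743) and *Timp3*, an inhibitor of metalloproteinases (0.0812). *Timp3* read 643, 1146 and 708 CPM in KO replicates 1, 2 and 3 and 922 to 1188 CPM in WT. Nearest to *Emp3* were *Zbtb40* (0.0536), *Ppid*, a cyclophilin (0.0566), and *Mfap3* (0.0596), and nearest to *Pmp22* were *Dynlt3*, a dynein light chain (0.0862), *Zfp383* (0.0951) and *Pja2*, a ubiquitin ligase (0.115). The small numbers for these 3 members go with their small differences between libraries.

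**Figure D3:**
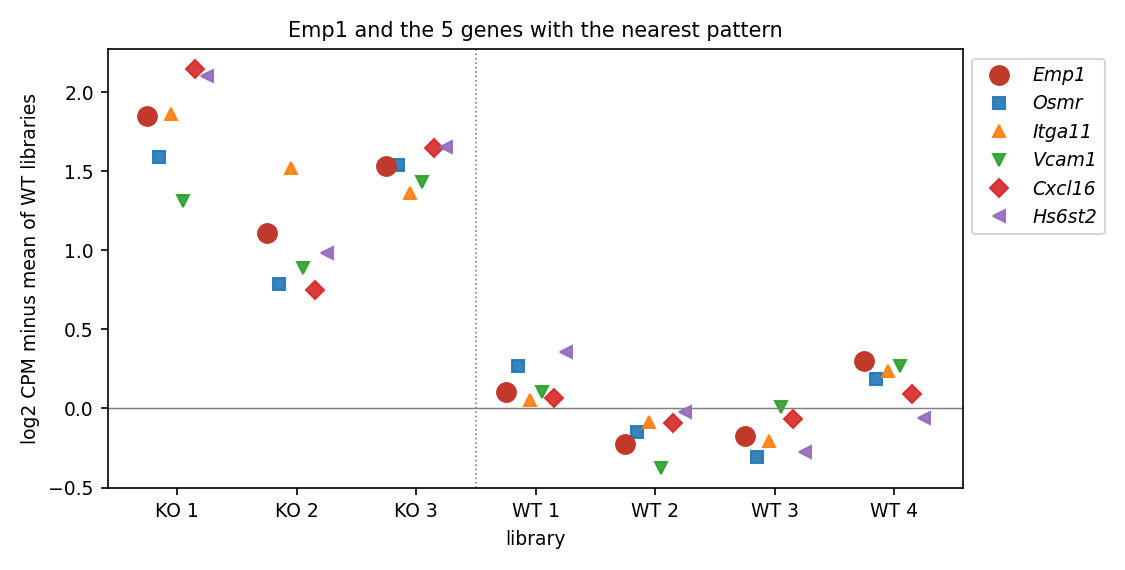
Log2 CPM minus the mean of the WT libraries, for *Emp1* and the 5 genes whose pattern over the 7 libraries was nearest, KO left of WT. All 6 genes are higher in each KO library than in any WT library, and KO replicate 2 is the lowest KO library for *Emp1*, *Osmr*, *Vcam1*, *Cxcl16* and *Hs6st2*.

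The summed markers of some cell types ordered the KO libraries as a member did, and those of others did not. With 3 KO libraries, a shared order can arise by chance. In RNA of whole aorta, fewer cells of a type and less RNA per cell cannot be told apart. The 14 macrophage markers summed to 4352, 759 and 1390 CPM in KO replicates 1, 2 and 3 and to 337 to 579 CPM in WT, and the KO libraries took the same order as for *Emp1*. The leading markers were *Lyz2*, lysozyme, with 1879, 260 and 484 CPM in KO libraries, against 95.2 to 205 CPM in WT libraries, *Mrc1*, a mannose receptor, with 420, 84.8 and 154 CPM in KO libraries, against 52.3 to 80.7 CPM in WT libraries, and *Csf1r*, a growth factor receptor, with 415, 84.1 and 112 CPM in KO libraries, against 52.1 to 78.9 CPM in WT libraries. DESeq2 called 14 of the 14 macrophage markers higher, against 6.15% of all genes with an adjusted p. EdgeR called 0 and limma-voom 0. In edgeR 14 were higher at an unadjusted p under 0.05, against 9.92% of all genes. The part of macrophages in the *Emp1* level was not tested. KO replicate 2 was the lowest KO library for both, with *Emp1* at 288 CPM and a macrophage sum of 759 CPM, still above the WT range.

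Smooth muscle markers ran the other way, with 12 of 12 log2 fold changes negative and their median at -1.09. *Acta2*, smooth muscle actin, read 1674, 6165 and 3080 CPM in KO libraries, against 7989 to 9202 CPM in WT libraries, *Myh11*, smooth muscle myosin, 621, 3079 and 1694 CPM in KO libraries, against 4433 to 5632 CPM in WT libraries, and *Tagln*, transgelin, 568, 2550 and 1387 CPM in KO libraries, against 2798 to 3354 CPM in WT libraries. DESeq2 called 8 of the 12 lower, against 3.53% of all genes with an adjusted p. EdgeR called 0 and limma-voom 0. In edgeR 10 had an unadjusted p under 0.05, against 17.2% of all genes in either direction. *Emp2* ordered the KO libraries as the sum of these markers did, although *Myocd* and *Des*, a transcriptional coactivator and an intermediate filament protein, took other orders. The 11 endothelial markers, led by *Pecam1*, *Vwf* and *Cdh5*, summed to 1067, 1739 and 1751 CPM in KO libraries, against 1710 to 1829 CPM in WT libraries, so that KO replicate 1, the lowest library for *Emp2* and *Pmp22*, was also lowest here. *Pecam1* (257, 523 and 508 CPM in KO replicates 1, 2 and 3) and *Vwf* (148, 425 and 381 CPM) were lowest in that library. *Cdh5* (204, 190 and 228 CPM), *Robo4* and *Emcn* were lower in KO replicate 2 than in KO replicate 1. The part of smooth muscle or endothelial cells in the *Emp2* or *Pmp22* level was not tested.

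Schwann cell markers bear on *Pmp22*. The 16 markers summed to 88.7, 78.9 and 152 CPM in KO replicates 1, 2 and 3, and to 63.2, 94.7, 307 and 82.5 CPM in WT replicates 1, 2, 3 and 4. WT replicate 3, the highest library for *Pmp22*, and KO replicate 3, its highest KO library, led their groups. Other libraries went the other way. KO replicate 1 had a higher sum than KO replicate 2 but less *Pmp22* (116 against 191 CPM). That order of the sum was also the order of *Mbp* and *Cnp*, its most abundant markers. In contrast, *Prx*, *Cdh19*, *S100b* and *Mal* rose from KO replicate 1 to 2 to 3, as *Pmp22* did, and other markers took either order. WT replicate 2 had a higher sum than WT replicate 1 but less *Pmp22* (171 against 205 CPM). *Prx*, periaxin, read 6.33, 10.7 and 13.1 CPM in KO libraries, against 11.2, 11, 31.5 and 13 CPM in WT libraries. *Mbp*, myelin basic protein, read 31.7, 16.9 and 49.0 CPM in KO libraries, against 11.6 to 87.0 CPM in WT libraries, and *Cnp*, an enzyme of myelinating cells, 20.3, 13.5 and 23.3 CPM in KO libraries, against 10.4 to 43.4 CPM in WT libraries. *Pmp22* in WT stayed within 171 to 257 CPM, and the part of Schwann cells in the *Pmp22* level was not tested.

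**Figure D4:**
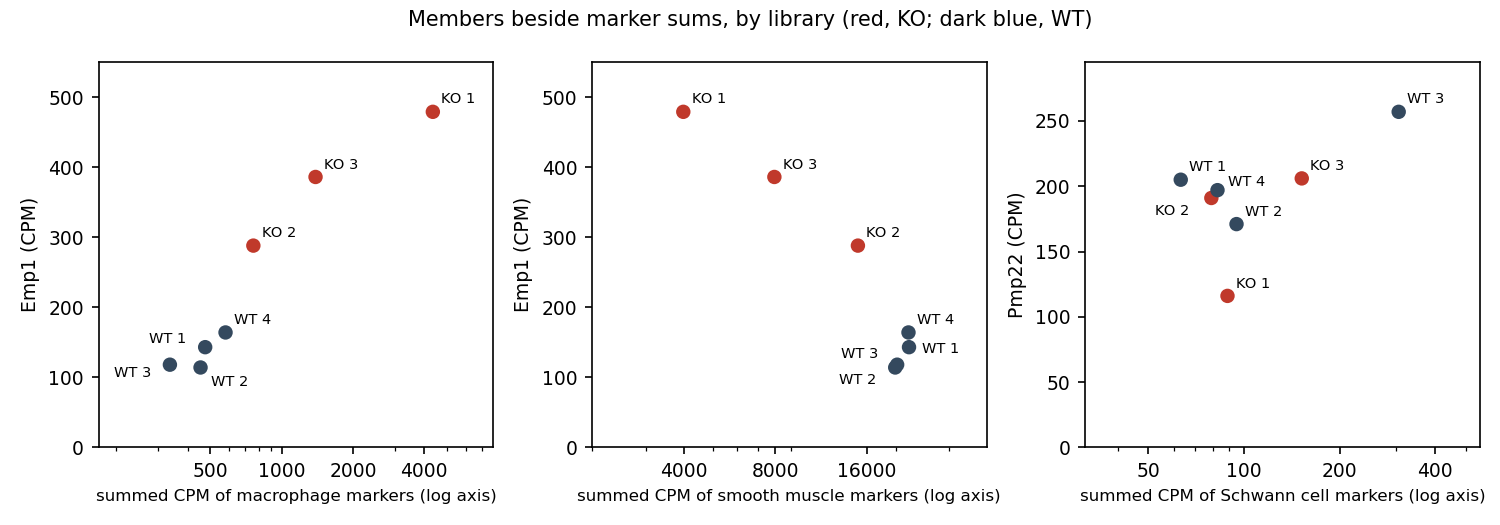
*Emp1* (CPM) beside the summed CPM of 14 macrophage and 12 smooth muscle markers, and *Pmp22* (CPM) beside that of 16 Schwann cell markers, with the sums on a log axis and 1 point per library. KO replicates 1, 3 and 2 descend in *Emp1* and in the macrophage sum, and WT replicate 3 is highest for *Pmp22* and for the Schwann cell sum (307 CPM).

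Epithelial and mesothelial markers, which the name of the family brings to mind, were low. The 13 markers together summed to 61.1, 89.9 and 152 CPM in KO libraries, against 45.5 to 98.5 CPM in WT libraries, below *Emp1* alone in every library. Of 10 tested, 9 were positive in log2 fold change, and their median was 0.76 against -0.028 over all genes tested. The most abundant were *Upk3b* and *Msln*, of mesothelium, and *Krt18*, a keratin, *Upk3b* with 12.7, 33.8 and 42.9 CPM in KO libraries, against 12.5 to 38.1 CPM in WT libraries. *Esrp1*, an epithelial splicing factor, was at 0 in all 7 libraries, where a count of 0 allows up to 3 reads in each, and *Cdh1*, E-cadherin, was at 5.60, 0.114 and 2.10 CPM in KO and at 0.975 CPM or less in WT. *Krt8* read 6.36, 3.03 and 8.83 CPM in KO libraries, against 1.37 to 3.70 CPM in WT libraries, and *Krt14* 2.33, 0.757 and 6.69 CPM in KO libraries, against 0.324 to 1.41 CPM in WT libraries, both keratins named after their values were seen. The part of epithelial and mesothelial cells in the *Emp1* level was not tested.

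Among the other marker lists, neutrophil genes summed to 328, 10.6 and 56.7 CPM in KO libraries, against 3.37 to 11.6 CPM in WT libraries, led by *Csf3r*, *S100a9* and *Cxcr2*. The KO libraries took the same order there as for *Emp1*. Striated muscle genes, led by *Myh6*, *Actc1* and *Tnnt2*, summed to 897, 993 and 149 CPM in KO libraries, against 40.2 to 125 CPM in WT libraries. *Emp1* did not follow that order of the KO libraries, and neither did all genes of the list. *Acta1* (61.6 CPM), *Ckm* (30.1 CPM) and *Myl1* (23.9 CPM) were highest in KO replicate 3, where the sum was the lowest in KO. Fibroblast genes, led by *Col1a2*, *Col1a1* and *Dcn*, summed to 20586, 14374 and 13257 CPM in KO libraries, against 10292 to 18689 CPM in WT libraries. Adipocyte genes, led by *Fabp4*, *Cfd* and *Ucp1*, summed to 2900, 4849 and 6832 CPM in KO libraries, against 3114 to 6055 CPM in WT libraries. The striated muscle sum did not overlap between the groups, and the other 3 did. EdgeR called 0 genes of each marker list. DESeq2 called 5 of 7 tested neutrophil genes and 7 of 10 striated muscle genes higher. Also higher were 1 of 11 fibroblast genes (*Lum*), 1 of 15 Schwann cell genes (*Egr2*) and 2 of 10 epithelial and mesothelial genes (*Wt1* and *Krt14*). It called 0 endothelial and 0 adipocyte genes. Over all genes with an adjusted p it called 6.15% higher. Log2 fold changes were negative for 13 of the 15 Schwann cell genes (median -0.43) and for 2 of the 7 neutrophil genes. Limma-voom called 1 striated muscle gene, *Ckm*, and 0 in the other marker lists, against 0.0365% of all genes. At an unadjusted p under 0.05 edgeR listed 5 neutrophil, 9 striated muscle, 2 fibroblast, 1 Schwann cell and 3 epithelial and mesothelial genes, all higher, and 0 endothelial or adipocyte genes. Of all genes tested 9.92% were higher at that p.

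Among relatives with the same fold, negative log2 fold changes outnumbered positive ones. Of 28 listed claudin-like genes 14 were tested, 10 with a negative log2 fold change, and their median was -0.29 against -0.028 over all genes tested. EdgeR, DESeq2 and limma-voom each called 0, and 2, *Tmem47* and *Cacng7*, were lower at an unadjusted p under 0.05. Of all genes tested 17.2% passed that p in either direction. *Lhfp*, a member of the lipoma HMGIC fusion partner family, was the most abundant at 197 ± 51.3 CPM in KO libraries, against 227 ± 36.3 CPM in WT libraries (± SD, n = 3 and 4). *Tmem47*, a junction protein, read 44.2, 121 and 73.7 CPM in KO libraries, against 116 to 155 CPM in WT libraries, a log2 fold change of -0.83 (SE 0.31), and without KO replicate 2 edgeR called it lower (log2 fold change -1.22, adjusted p = 0.0421). *Perp*, a desmosome protein and p53 target, read 11.2, 38.4 and 27.4 CPM in KO libraries, against 38.7 to 51.7 CPM in WT libraries, groups that narrowly did not overlap. It was the 1 gene of the 14 tested that was lower without overlap, against 8.56% of all genes tested. *Cldnd1* averaged 53.0 ± 6.38 CPM in KO libraries, against 57.6 ± 5.84 CPM in WT libraries.

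Claudins were scarce in these libraries. Of 25 listed 13 were tested, 10 of them with a negative log2 fold change, and their median was -0.34 against -0.028 over all genes tested. *Cldn5*, the claudin of endothelial tight junctions, averaged 40.6 ± 15.7 CPM in KO libraries, against 38.0 ± 7.52 CPM in WT libraries. The most abundant claudins, *Cldn5*, *Cldn12* and *Cldn15*, had log2 fold changes of 0.10, -0.04 and 0.00, so the lower median came from scarcer ones. *Cldn1*, at -1.04, read 1.71, 3.97, 8.62 and 2.06 CPM in WT replicates 1, 2, 3 and 4, so its difference leans on WT replicate 3. EdgeR and limma-voom called 0, with 1 lower at an unadjusted p under 0.05. Of all genes, edgeR listed 17.2% at that p in either direction, and DESeq2 called 3.53% lower. DESeq2 called 1, *Cldn2*, lower (adjusted p = 0.0414), at 0.232 ± 0.0554 CPM in KO libraries, against 0.586 ± 0.117 CPM in WT libraries.

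**Figure D5:**
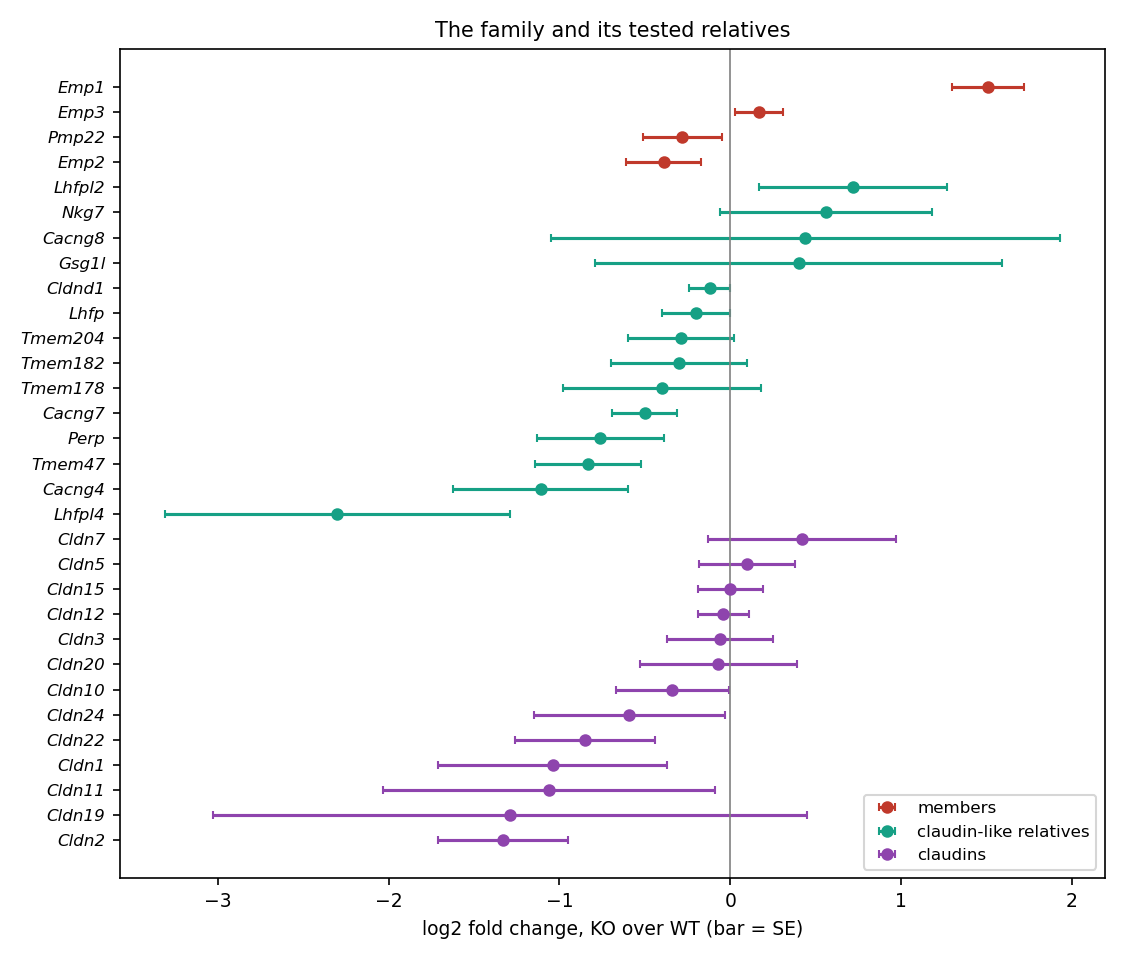
Log2 fold change of KO over WT with its SE for the 4 members, 14 tested claudin-like relatives and 13 tested claudins, each sorted from high to low. *Emp1* is at 1.51, while 10 of 14 relatives and 10 of 13 claudins lie below 0. The most abundant claudins, *Cldn5*, *Cldn12* and *Cldn15*, are at 0.10, -0.04 and 0.00.

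Genes whose proteins bind the family were listed next, 11 genes and all tested, with a median log2 fold change of -0.12 and 6 negative. *Itgb1*, the common integrin beta chain, averaged 1275 ± 300 CPM in KO libraries, against 1514 ± 126 CPM in WT libraries, and *Cav1*, caveolin, 694 ± 250 and 1009 ± 61.3 CPM in KO and WT, groups that did not overlap. In this list 3 of 11 genes were lower without overlap, against 8.56% of all genes tested. *Tgfbr2*, a TGF-β receptor, had a log2 fold change of 0.20 (SE 0.16) and *Tjp1*, a tight junction scaffold, one of 0.00 (SE 0.11). *P2rx7*, the ATP receptor, read 38.5, 19.5 and 15.6 CPM in KO libraries, against 15.2 to 20.1 CPM in WT libraries. *Itgb3*, the beta chain of the vitronectin receptor, read 85.1, 94.3 and 80.8 CPM in KO libraries, against 121 to 147 CPM in WT libraries, and was the 1 gene of the list that DESeq2 called (lower, adjusted p = 0.00072). EdgeR called 0 and limma-voom 0, with *Itgb3* lower at an unadjusted p under 0.05. Of all genes, DESeq2 called 3.53% lower, and edgeR listed 17.2% at an unadjusted p under 0.05 in either direction. *P2rx7* was chosen for mention after its values were seen.

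*Pmp22* also belongs to the growth-arrest-specific genes, of which *Gas1*, *Gas2*, *Gas5*, *Gas6* and *Gas7* were tested, with a median of 0.32. EdgeR, DESeq2 and limma-voom each called 0, with *Gas5* higher and *Gas1* lower at an unadjusted p under 0.05. Of all genes tested 17.2% passed that p in either direction. *Gas6*, a ligand of TAM receptors, averaged 408 ± 65.0 CPM in KO libraries, against 391 ± 68.1 CPM in WT libraries, *Gas1*, a growth-arrest membrane protein, 86.7 ± 7.68 and 108 ± 12.6 CPM, *Gas7* 67.3 ± 42.7 and 46.2 ± 10.4 CPM, and *Gas5*, a noncoding RNA, 62.3 ± 11.2 and 47.5 ± 3.40 CPM in KO and WT. *Gas7* in KO was at 117 CPM in replicate 1 and at 45.7 and 39.8 CPM in the other KO libraries, so its mean rests on 1 library.

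Immediate early genes, among them the subunits of AP-1, numbered 16, 8 with a positive and 8 with a negative log2 fold change, around a median of -0.06. Their sum was 893, 694 and 911 CPM in KO libraries, against 537 to 1221 CPM in WT libraries. Among the AP-1 subunits *Jun* read 118, 79.9 and 114 CPM in KO libraries, against 71.9 to 153 CPM in WT libraries, and *Fosl2* 188, 88.4 and 126 CPM in KO libraries, against 61.8 to 145 CPM in WT libraries, both with overlap. *Klf6* averaged 153 ± 10.2 and *Egr1* 91.5 ± 23.4 CPM in KO, against 139 ± 38.7 and 182 ± 88.7 CPM in WT. EdgeR and limma-voom called 0, with *Egr2* and *Myc* higher and *Nr4a1* and *Fosb* lower at an unadjusted p under 0.05. DESeq2 called *Egr2* higher (adjusted p = 0.000107) and *Nr4a1*, an orphan nuclear receptor, lower (adjusted p = 0.0146). In either direction, 17.2% of all genes passed that unadjusted p, and DESeq2 called 9.68%. *Egr2*, which in Schwann cells drives myelin genes, read 9.21, 5.18 and 8.84 CPM in KO libraries, against 2.52 to 3.40 CPM in WT libraries, while *Pmp22* overlapped between the groups. Without KO replicate 2 edgeR called *Egr2* (adjusted p = 0.0243) and *Myc* (adjusted p = 0.0284), both higher.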

How the data were processed

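Aortic RNA, extracted with Trizol, went into SMARTER mRNA-Seq libraries according to the labels. The table the authors deposited holds estimated counts for each gene, in whole numbers and with no scaling between libraries. The submitters' processing notes name the builds GRCm38 and mm10. Which aligner, counting tool and strandedness were used is not given in the sources used here. In each library more identifiers had a count of 4 (695 to 785) than of 3 (511 to 556) or 5 (478 to 548), so a count may not be a read, and depth is stated as deposited counts.

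Of 47729 identifiers, 47224 matched a symbol, and 505, with 0.0711% of a library's counts or less, did not. Positions and lengths come from GENCODE M21. With R 4.3.3 and edgeR 4.0.16, genes were filtered by filterByExpr, scaled by TMM and tested with glmQLFTest without covariates, with Benjamini-Hochberg adjustment and a threshold of 0.05 over 19188 genes. DESeq2 1.42.0 and limma 3.58.1 (voom with sample weights) were run beside it. SEs match the quasi-likelihood F statistic, and the procedure was tested on simulated counts. Likeness of patterns used log2 CPM with a prior count of 2 among genes of 10 CPM or more.

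The members, lists and tests were chosen with earlier results of these data known. Named by rule were the members, *Mmp19*, the 5 genes nearest to *Emp1* and 3 nearest to each other member, the 4 most abundant genes of each list and 3 of each marker list, and list genes past a threshold. *Esrp1*, *Cdh1*, *P2rx7*, *Krt8*, *Myocd*, *Des* and genes named for an unadjusted p alone were added once their values were known. So were *Cdh19*, *S100b*, *Mal*, *Robo4*, *Emcn*, *Myl1* and *Acta1*. Some items of the lists are not reported here and were left out of them. Alternatives were other scalings, filters and tools, the replicate number as a block, leaving out each library, and, chosen after seeing the data, counts divided by 4 and the longest protein-coding transcript as length.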

Additional observations from a re-analysis of the deposited data

Results flagged for a closer look

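Of 80 sets of 4 WT values, 8 held a library far from the rest by Dixon's ratio at its critical value for 4 samples. The sets were the members, *Mmp19*, the genes nearest to members, the most abundant genes of each list and the sums of all lists. Other genes named here were not examined. Chance flags about 1 in 20 such sets, though these sets are not independent, since some genes were chosen for likeness and some lie within the sums. *Emp2* was at 87.7 CPM in WT replicate 2, against 123 to 130 CPM in the other WT libraries. *Ccdc149* was at 13.7 CPM in the same library, against 19.4 to 19.9 CPM, which follows from its choice as a neighbour of *Emp2* in pattern. WT replicate 2 was also the low library for *Jun*, at 71.9 CPM against 147 to 153 CPM.

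WT replicate 3 was the high library for *Prx*, periaxin, at 31.5 CPM against 11 to 13 CPM, and for the summed Schwann cell markers, at 307 CPM against 63.2 to 94.7 CPM. *Pmp22* was highest in that library without being set apart by this measure. WT replicate 1 was the high library for *Klf6* (196 CPM, against 113 to 126), for *Fosl2* (145 CPM, against 61.8 to 74.8) and for *Tnnt2*, cardiac troponin T (27.4 CPM, against 10.7 to 12.5). Sets of 3 KO libraries were not examined in this way.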

How the results depend on the processing

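The log2 fold changes of the 4 members moved by less than their spread within groups under all alternatives run, leaving out a library included, except that of *Emp3*, which was -0.01 with limma-voom. Without 1 library they ran from 1.32 to 1.74 for *Emp1*, -0.60 to -0.25 for *Emp2*, 0.07 to 0.32 for *Emp3* and -0.43 to -0.07 for *Pmp22*. The count of genes called was 3 in edgeR, also with DESeq2's size factors or upper-quartile scaling. It was 0 without a filter, 7 when 50 counts were required in 3 or more libraries, 7 with limma-voom, 7 with counts divided by 4 and 1606 with DESeq2. Without 1 library it ran from 0 to 1029, the highest without KO replicate 2. DESeq2 called 1 claudin, 1 partner gene and 2 immediate early genes. Without 1 library, edgeR called 0 to 1 claudin-like relatives and 0 to 2 immediate early genes. The cause of these shifts was not tested. Levels per kb follow the length used. Over the longest annotated transcript they were 132 in KO and 46.3 in WT for *Emp1*, 16.9 and 22.1 for *Emp2*, 72.4 and 64.2 for *Emp3*, and 93.9 and 114 for *Pmp22*. Over the longest protein-coding transcript *Emp2* was at 25.9 in KO and 33.8 in WT, with the other members at the same values.

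Whether the replicate numbers of the labels pair the samples could not be settled from so few libraries. Deviations of same-numbered KO and WT libraries correlated over genes at 0.0545, 0.0691 and 0.340. KO replicate 3 and WT replicate 3 correlated best with each other, and WT replicate 2 correlated best with KO replicate 2. KO replicates 1 and 2 and WT replicate 1 each correlated best with another number. With the replicate block the count of genes called was 0, and the log2 fold changes of the members were 1.6, -0.38, 0.20 and -0.33 for *Emp1*, *Emp2*, *Emp3* and *Pmp22*. Each member had 3310 counts or more in every library.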
